A study of Mus musculus with 44 samples.

Results

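The cytochrome P450 family was described here as all protein-coding genes whose GENCODE M21 symbol is Cyp followed by a family number, a subfamily letter and a gene number. The rule gave 94 genes among the 54446 gene identifiers of the count table, and all 94 were found by their Ensembl identifier. They fall into 16 families and 39 subfamilies. The RNA came from C57BL/6 male mice, with no genotype given in the labels, in 6 groups. Whole brain of 12-month-old mice was taken on control diet (CD, n = 5) or after one week of ketogenic diet fed ad libitum (KD, n = 7). Whole brain and liver of 26-month-old mice were taken on CD (n = 8 each) or after a cyclic KD begun at 12 months, in which KD and CD alternated every week (n = 8 each), and the tissues of this cohort were collected during a week of CD feeding. KD supplied most calories as fat and almost no carbohydrate, and CD supplied most as carbohydrate. Each library is 1 sample of 1 tissue, so the p-values measure the spread between these samples.

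P450 enzymes hold a heme group and insert 1 oxygen atom into a lipid, a steroid, a drug or another foreign compound, with electrons passed on by the reductase Por in the endoplasmic reticulum or by ferredoxin in mitochondria. Hepatocytes are known for the largest store of these enzymes, most of it from families 1, 2 and 3, which act on foreign compounds and on arachidonic acid. Family 4 hydroxylates fatty acids and eicosanoids, while the other members make bile acids and steroid hormones or activate and clear vitamins A and D. By these roles 58 of the 94 genes were placed with foreign compounds and arachidonate, 17 with fatty acids and eicosanoids, 6 with sterols and bile acids (Cyp7a1, Cyp7b1, Cyp8b1, Cyp27a1, Cyp39a1 and Cyp46a1), 6 with steroid hormones (Cyp11a1, Cyp11b1, Cyp11b2, Cyp17a1, Cyp19a1 and Cyp21a1), 6 with vitamins A and D (Cyp24a1, Cyp26a1, Cyp26b1, Cyp26c1, Cyp27b1 and Cyp2r1) and 1, Cyp20a1, with none.

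The sequence before the start is shown for 4 genes: 3 liver genes chosen because they carry a TATA box sequence, and Cyp46a1, the highest member in brain. Each is the 100 bases before the RefSeq transcription start on the strand of the gene in GRCm38.p6, 5′ to 3′, and capitals mark TATAAA where it lies within bases 40 to 16 before the start. Cyp2e1 (chr7:140763719-140763818, plus strand), Cyp1a2 (chr9:57683656-57683755, minus strand) and Cyp8b1 (chr9:121916306-121916405, minus strand) carry it, and Cyp46a1 (chr12:108334216-108334315, plus strand) does not:
Cyp2e1: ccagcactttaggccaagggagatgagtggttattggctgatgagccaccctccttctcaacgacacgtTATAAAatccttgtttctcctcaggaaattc
Cyp1a2: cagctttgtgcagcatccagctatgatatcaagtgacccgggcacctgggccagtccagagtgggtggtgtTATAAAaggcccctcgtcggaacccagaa
Cyp8b1: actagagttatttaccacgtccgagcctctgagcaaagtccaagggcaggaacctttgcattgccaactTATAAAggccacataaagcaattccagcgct
Cyp46a1: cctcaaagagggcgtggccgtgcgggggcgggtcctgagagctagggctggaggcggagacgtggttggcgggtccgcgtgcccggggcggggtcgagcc
Promoter sequence was matched for 73 of the 94 genes. TATAAA on the strand of the gene lay in that window in 11 of the 73 (15.1%), against 598 of 27025 genes (2.21%). The 11 were Cyp1a1, Cyp1a2, Cyp2a12, Cyp2a22, Cyp2a4, Cyp2a5, Cyp2c38, Cyp2c55, Cyp2c67, Cyp2e1 and Cyp8b1, of which 10 belong to the foreign compound genes and Cyp8b1 to bile acid synthesis. Searched on both strands over 250 bases before the start, TATAAA was found for 26 of 73 (35.6%) and for 12.9% of all genes. The median GC content of those 250 bases was 49.2% in the family and 52% over all genes, with a median of 2 and 6 CpG dinucleotides. Cyp46a1 had the most, with 23 CpG and 67.6% GC, and Cyp2e1 had 2 CpG. TATAAA was in the window for 8 of the 40 matched members higher in liver than in brain (20%), and not for Cyp2d26, Cyp2d10, Cyp2c29 or Cyp2c70, the liver members next in level after Cyp2e1. All of those held it on either strand within the 250 bases, and only the exact sequence was counted. For 6 members the RefSeq start lay over 100 bases from the gene start in M21, among them Cyp2c29 (17680 bases). These are descriptions of sequence, and no factor binding was measured.

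Most of the family lies in tandem clusters. With neighbours at most 500 kb apart, 71 members fell into 10 clusters and 23 stood alone. The largest were 14 Cyp2c genes on chromosome 19, 13 genes of the Cyp2a, 2b, 2f, 2g, 2s and 2t subfamilies on chromosome 7, 8 Cyp2j genes on chromosome 4, 8 Cyp2d genes on chromosome 15, 8 Cyp4f genes on chromosome 17, 7 Cyp4a, 4b and 4x genes on chromosome 4 and 6 Cyp3a genes on chromosome 5. Neighbours share sequence, which limits how reads can be assigned between them. Of 50-base windows along the longest transcript, none was found in another gene for 26 members, while over 10% were for 38 members and over 50% for Cyp2c40 (72.1%), Cyp2c69 (54.8%) and Cyp2c67 (52.8%). Values for these 3 and for Cyp4a32 (46.8%), Cyp2c68 (43.3%), Cyp2a5 (40.8%), Cyp2d10 (40.5%) and Cyp2a4 (38%) are therefore uncertain as to which copy gave the reads. Cyp46a1, Cyp2s1, Cyp8b1, Cyp26a1 and Cyp2j9 shared no window.

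Libraries held 6879726 to 12682087 counts in liver and 7447742 to 12744415 in brain. All 94 members reached 10 counts summed over each tissue, but that count rested on some libraries. In 6 livers (CD 1 and KD 10, 11, 14, 15 and 16) between 1.23% and 2.39% of counts fell on Gm10800, a predicted gene, against at most 0.01% in the other 10 livers, and those 6 libraries had counts on all 94 members where the other 10 had counts on 75 to 83. Over the 10 livers, 80 members reached 10 counts and 6 had none. The brains of 26 months also stood above 0.01% Gm10800, all 16 of them, with counts on 57 to 93 members, and the 12 brains of 12 months had counts on 42 to 57, with 50 members at 10 counts in sum and 17 at 0. The filter on low counts left 66 members among 18002 genes in liver, 28 among 22079 in brain and 61 among 20463 when both tissues were fitted together.

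Liver gave P450 genes a far larger share of counts than brain did. In brain the 94 genes took 0.0329% to 0.0431% of the counts, with the 4 groups overlapping. The KD livers gave 1.02% to 1.95%. The CD livers split, with 1.84% to 2.1% in livers 1, 2, 4 and 8 and 0.208%, 0.501%, 0.303% and 0.744% in livers 3, 5, 6 and 7. All KD livers lay above the 4 low CD livers and overlapped with the other CD livers, as the plot of shares by group shows.

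**Figure D1:**
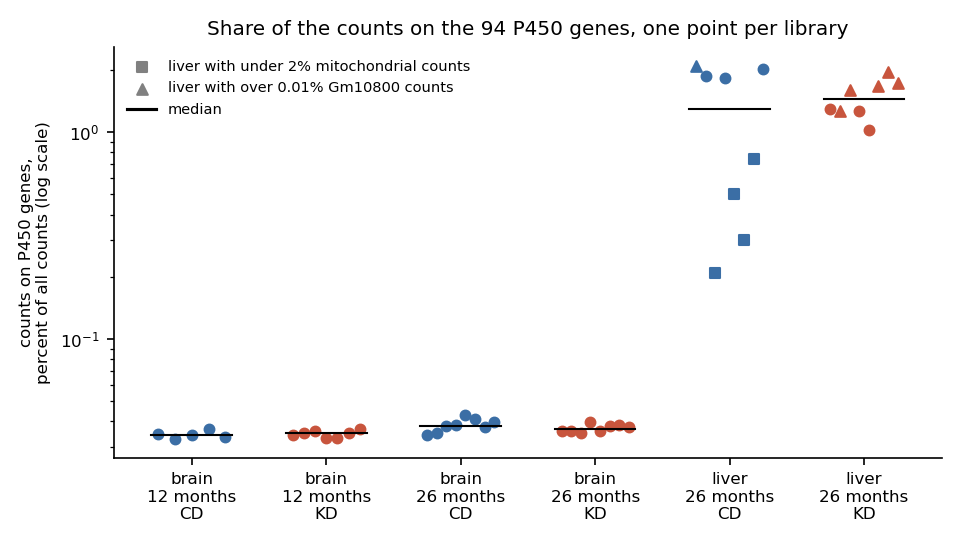
Share of all counts on the 94 P450 genes in percent, on a log axis, with 1 point per library and a line at the median of each group. Squares mark the 4 CD livers with under 2% mitochondrial counts, at 0.208% to 0.744%, and triangles mark the 6 livers with over 0.01% Gm10800 counts, at 1.26% to 2.1%; all brains lie between 0.0329% and 0.0431%.

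The 4 low CD livers also differed from the rest outside the family. Mitochondrially encoded genes took 1.68% to 1.91% of their counts and at least 2.61% in every other liver. Kupffer cell markers (10 of 10 passed the filter) summed to 5901 to 6273 CPM (counts scaled to a common library size) in them and to 258 to 2887 CPM in the other 12, and neutrophil markers (8 of 12 passed) to 205 to 2006 against 13.5 to 81.5 CPM. Summed over whole groups, the Kupffer cell markers ranged from 258 to 6273 CPM in CD and from 278 to 2887 CPM in KD livers, and no marker of either list was at 0 over a whole group. Hepatocyte markers such as albumin summed to 19909 to 28873 CPM in the 4, to 45664 to 52157 CPM in CD livers 1, 2, 4 and 8, and to 33132 to 53589 CPM in KD livers. The part of these differences in the P450 values was not tested, and in bulk tissue fewer hepatocytes and less RNA per hepatocyte cannot be told apart. These 4 libraries are kept in the comparisons below unless their absence is stated.

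Among the 66 members tested, the 4 were the 4 lowest of the 8 CD livers for 41, where 28.8% of all genes tested had that order. By role these were 27 of 41 foreign compound genes, 8 of 12 fatty acid genes, 5 of 6 sterol and bile acid genes, 1 of 4 vitamin genes and neither of the steroid hormone genes. They were the 4 highest for 4 members (Cyp1b1, Cyp4f16, Cyp4f18 and Cyp20a1), against 24.6% of all genes. For 21 members they were the 4 lowest of all 16 livers, against 14.6% of genes. The 4 were set apart by their low share of P450 counts. How often members were lowest in them therefore follows largely from that choice.

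Cyp2e1 (ENSMUSG00000025479, chr7:140763739-140774987, plus strand, GRCm38), which oxidizes ethanol, acetone and other small molecules, was the highest member of the family in liver. Per kilobase of exon it averaged 1141 CPM in CD livers (SD 1056, n = 8) and 1459 CPM in KD livers (SD 551, n = 8). In CPM not divided by length, the low CD livers 3, 6, 5 and 7 gave 26.5, 167, 376 and 965, and CD livers 8, 4, 2 and 1 gave 3997, 4006, 4860 and 5308. KD livers 9 to 16 gave 1910, 1909, 3190, 2292, 2480, 4413, 4940 and 4055 CPM. All KD livers lay above the low CD livers, and 5 of them below CD livers 1, 2, 4 and 8. After Cyp2e1 the mean levels in CD livers per kilobase were 341 for Cyp2d26, 254 for Cyp2d10, 251 for Cyp2c29, which metabolizes arachidonic acid and drugs, 240 for Cyp2c70, the hydroxylase that makes the muricholic acids of mice, and 204 CPM for Cyp2d9, a steroid 16-alpha-hydroxylase of males. Cyp3a25 (199), Cyp2f2 (191), Cyp2c50 (191), Cyp3a11 (177), Cyp2j5, Cyp1a2 (166), Cyp2c37 (164), Cyp2c54 (156) and Cyp27a1 (145 CPM per kilobase) followed. Each of these 15 was below the next higher one by less than 1 SD of the higher gene, so the order among neighbours in CD livers is not resolved. Means were above 100 CPM for 30 members in CD and 32 in KD livers.

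Within single livers the leading gene changed. Cyp2e1 took 14% to 23% of the counts on P450 genes in CD livers 1, 2, 4, 7 and 8 and 18.7% to 23.5% in KD livers 11 to 16. Cyp2d26 led in CD livers 3 (10.5%) and 6 (10.1%), and Cyp3a11, the main drug-oxidizing member of family 3 in mouse liver, led in CD liver 5 (10.6%) and in KD livers 9 (16.9%) and 10 (17.2%). Foreign compound genes together took 83% to 85.7% of P450 counts in every liver but CD 3 and 6 (70.4% and 81%), and family 4 took 16.4% in CD liver 3 and 5.94% to 11.2% elsewhere. In CD liver 3, where Cyp17a1 was highest, steroid hormone genes took 4.87%, against 0.0407% to 1.38% in the other livers.

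**Figure D2:**
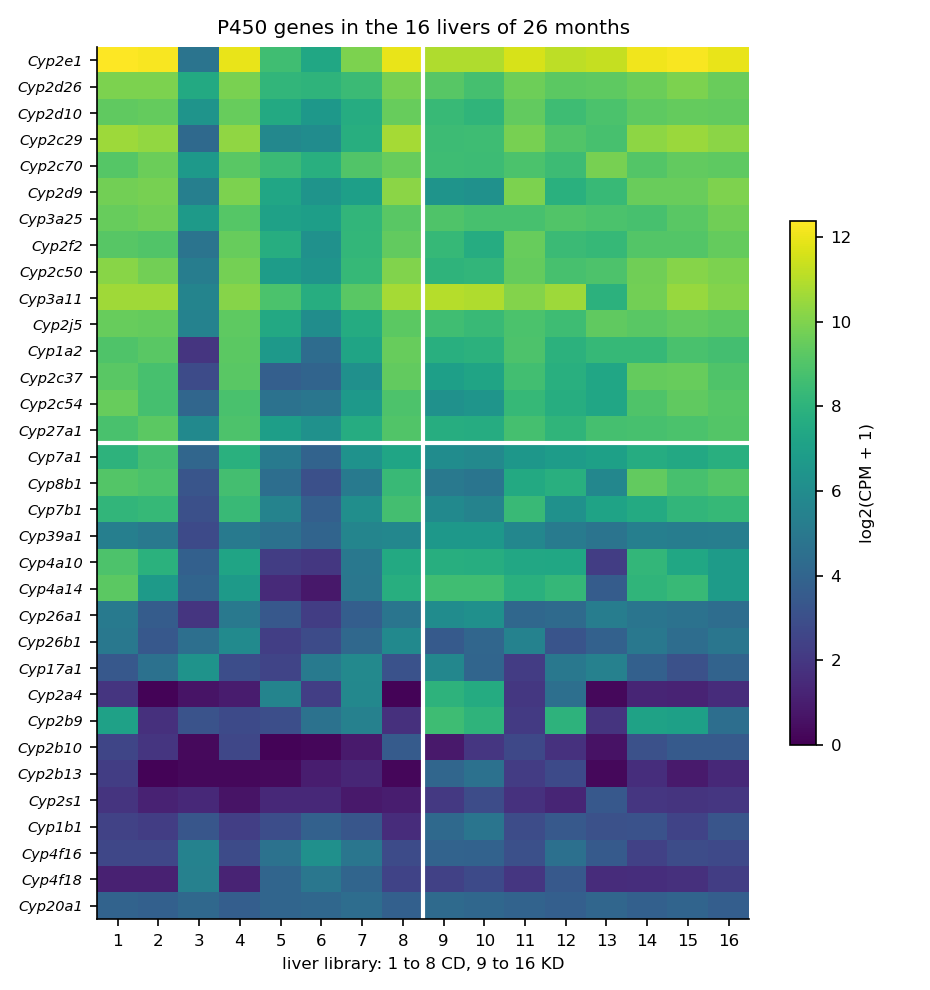
Heat map of log2(CPM + 1) for 33 P450 genes (rows) in the 16 livers (columns 1 to 8 CD, 9 to 16 KD, split by a white line), with the 15 genes of highest level per kilobase above the horizontal line. Columns 3, 5, 6 and 7 are dark in most upper rows and bright for Cyp4f16 and Cyp4f18, and columns 9 and 10 are bright for Cyp2a4, Cyp2b9 and Cyp2b13 and dark for Cyp2d9.

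Of the sterol and bile acid genes, all but Cyp39a1 showed the same split in CD livers. Cyp8b1, the 12-alpha-hydroxylase that sets the proportion of cholic acid, had 7.02, 8.57, 21.5 and 32.7 CPM in the low livers and 336 to 532 CPM in CD livers 1, 2, 4 and 8. In KD livers it ranged from 26.8 (KD 10) and 30.8 (KD 9) to 685 CPM (KD 14), with a median of 203. Cyp7a1, the rate-limiting enzyme of bile acid synthesis, had a lowest, median and highest value of 14.5, 116 and 402 CPM in CD and 56.1, 122 and 226 CPM in KD livers. Cyp7b1, of the acidic pathway, had 6.99, 174 and 408 CPM in CD and 45, 165 and 329 CPM in KD livers, and Cyp27a1, which starts that pathway in mitochondria, 56.8, 326 and 602 CPM in CD and 204, 422 and 527 CPM in KD livers. For all 4 genes the KD values lay within the CD range or, for Cyp8b1, exceeded it in KD livers 14 and 16. Cyp39a1, an oxysterol hydroxylase, had 5.93 to 51.6 CPM in CD livers, and KD livers 9, 10 and 11 (97.2, 95.4 and 52.6 CPM) lay above that range. Cyp46a1 had 0.592, 3.51 and 8.57 CPM in CD and 1.16, 6.57 and 12.6 CPM in KD livers.

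Fatty acid hydroxylases of the Cyp4a subfamily, textbook targets of the receptor PPARa, varied widely. Cyp4a14 had 0.727, 66.8 and 614 CPM as lowest, median and highest value in CD livers and 11.1, 291 and 384 CPM in KD livers. Cyp4a10 ranged from 2.99 to 488 CPM in CD and from 3.78 to 287 CPM in KD livers. KD liver 13 was the lowest KD liver for both, well below the other 7 KD livers, which had at least 111 CPM of Cyp4a14 and 109 CPM of Cyp4a10. The groups overlapped for both genes. Cyp4f18, a leukotriene hydroxylase known from leukocytes, and Cyp4f16 ran the other way: in the low CD livers they had 15.5 to 42.6 and 24.1 to 74.2 CPM, and in CD livers 1, 2, 4 and 8 they had 1.19 to 4.56 and 5.27 to 6.14 CPM.

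A further pattern concerned genes that differ between the sexes in mouse liver. The female-biased list (Cyp2a4, Cyp2b9, Cyp2b13, Cyp17a1, Cyp39a1 and others) summed to 788, 605 and 349 CPM in KD livers 9, 10 and 12, and to 50.3 to 260 CPM in the other 13. The male-biased list (Cyp2d9, Cyp7b1, Cyp4a12a and Cyp4a12b) summed to 157, 145, 343 and 494 CPM in KD livers 9, 10, 12 and 13 and to 46.8 to 235 CPM in the low CD livers, against 1074 to 2065 CPM in the other 8. Cyp2b9 had 365, 265 and 253 CPM in KD livers 9, 10 and 12, and 139, 136 and 132 CPM in KD 14, CD 1 and KD 15. Cyp2a4 had 252 and 193 CPM in KD livers 9 and 10 and 54.3 CPM or less elsewhere. Cyp2d9 had 83.2 and 76.6 CPM there, and 227 to 1025 CPM in the other KD livers. Cyp2b9 and Cyp2a4 made up most of the female-biased sums in KD livers 9 and 10, and Cyp2b9 most of that in KD liver 12. Of the other female-biased genes named, Cyp2b13 and Cyp39a1 were also highest in KD livers 9 and 10. Cyp17a1 was highest in CD liver 3 (82.1 CPM). The libraries of this pattern were singled out after their values were seen, and the pattern was not tested.

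Vitamin A catabolism was represented by all 3 retinoic acid hydroxylases. Cyp26a1 had 2.77, 11.6 and 31.8 CPM in CD and 16.8, 25.9 and 73.5 CPM in KD livers, Cyp26b1 3.85, 19.4 and 59.9 CPM in CD and 8.17, 18.1 and 44.3 CPM in KD livers, and Cyp26c1 1.65, 4.28 and 9.5 CPM in CD and 4.18, 7.62 and 12.1 CPM in KD livers. The groups overlapped for each. Cyp2r1, the vitamin D 25-hydroxylase, had 6.33, 17.9 and 30.2 CPM in CD and 16.1, 23 and 31.2 CPM in KD livers. Cyp27b1 and Cyp24a1, which activate and degrade vitamin D mainly in kidney, had medians of 0.115 and 0 CPM in CD livers. Of the steroid hormone genes, Cyp17a1, the 17-alpha-hydroxylase, had 4.87, 16.7 and 82.1 CPM in CD and 3.59, 14.9 and 52 CPM in KD livers, and Cyp21a1 had at most 6.46 CPM. Cyp11a1, Cyp11b1, Cyp11b2 and Cyp19a1 each had a median under 0.2 CPM in CD livers, and in livers of either diet their higher values were in the Gm10800-rich libraries: Cyp19a1 had 1.44 to 4.75 CPM in those 6 and 0 in the other 10.

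Liver and brain were compared in the 26-month CD mice, in 1 edgeR quasi-likelihood fit with Benjamini-Hochberg adjustment, to describe where each member is made. At adjusted p under 0.05, 52 of 61 members were higher in liver, where 36.0% of all genes tested were, and 7 were lower, where 41.0% were. By role, the higher ones were 29 of 34 foreign compound genes, 12 of 13 fatty acid genes, 5 of 6 sterol genes and 4 of 5 vitamin genes. The median log2 difference of the 61 was 5.91, and that of all genes -0.07. Of the members, 28 passed the filter in the fit of brains. Members that passed through the liver libraries could hardly come out lower there, so these counts and the median lean on that filter. Cyp3a13 had the smallest p, with 99.8, 301 and 446 CPM in liver and 2.64, 3.28 and 5.57 CPM in brain as lowest, median and highest values (log2 fold change 6.37, SE 0.38, adjusted p = 2.01e-10). Cyp2d26 had 211, 689 and 1119 CPM in liver and 0, 0.262 and 1.03 CPM in brain (log2 fold change 11.03, SE 0.68, adjusted p = 3.21e-10). For both genes the tissues did not overlap, and the share of all genes without overlap was not counted. Cyp2a12, Cyp2c68, Cyp2d10, Cyp3a25, Cyp2c23, Cyp4b1, Cyp2c70 and Cyp4v3 came next, with log2 fold changes of 5.4 to 11.77.

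Brain was the higher tissue for 7 members. Cyp46a1, the 24-hydroxylase through which neurons turn cholesterol into an exportable oxysterol, had 37.8, 80.1 and 127 CPM in brain and 0.647, 4.05 and 9.35 CPM in liver (log2 fold change -4.26, SE 0.61, adjusted p = 7.09e-06 by edgeR). Cyp4x1, known as a brain member of family 4, had 15, 16.9 and 20.2 CPM in brain and 0, 0.0405 and 2.19 CPM in liver (log2 fold change -5.78, SE 0.68, adjusted p = 8.58e-07 by edgeR). Cyp2j12 had 4.15, 5.75 and 6.33 CPM in brain and 0, 0 and 0.822 CPM in liver (log2 fold change -5.98, SE 0.64, adjusted p = 2.76e-07 by edgeR). The tissues did not overlap for these 3 genes or for Cyp2s1 (-2.11, SE 0.24). They overlapped for Cyp11a1, the side chain cleavage enzyme that begins steroid synthesis (-2.69, SE 0.63), for Cyp27b1 (-1.72, SE 0.55) and for Cyp2j9 (-0.95, SE 0.41), whose adjusted p of 0.0456 by edgeR was the nearest to the threshold and which lost its call in 14 of 21 alternative settings. Without the 4 low CD livers 53 members were higher in liver and 5 lower, and Cyp2j9 (-0.19) and Cyp27b1 (-1.11) were no longer called. Of the 20463 genes of the main fit, 7456 were then higher in liver and 8904 lower. Cyp2t4 and Cyp1b1 were not called. Cyp20a1, an enzyme with no settled substrate, differed least among the called members other than Cyp2j9, with 13.4 to 22 CPM in liver and 7.57 to 10 CPM in brain (log2 fold change 0.98, SE 0.11).

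**Figure D3:**
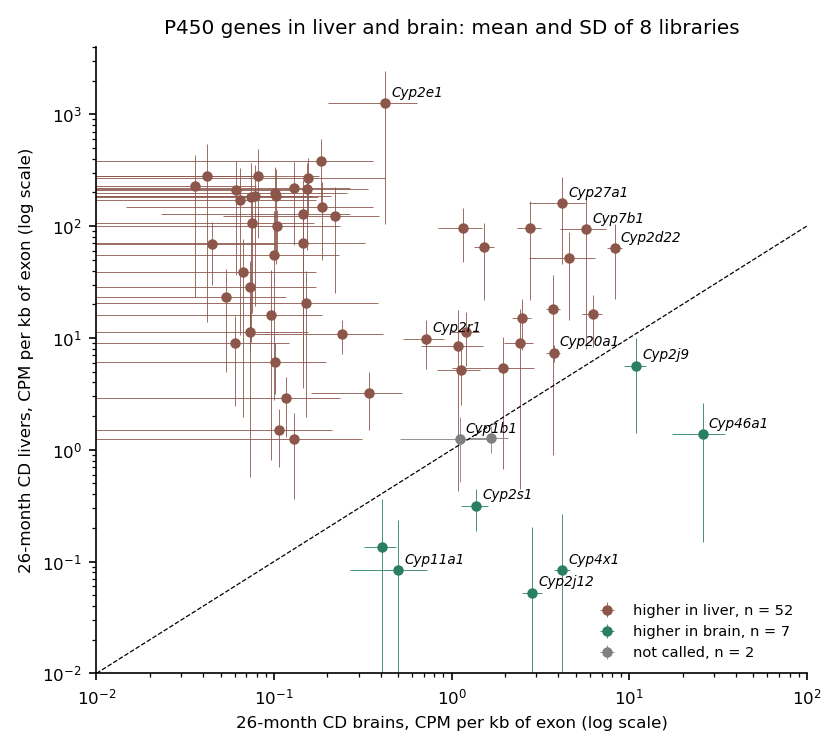
Mean CPM per kilobase of exon of the 61 tested P450 genes in 26-month CD brains (x axis) and CD livers (y axis), both on log axes, with bars of 1 SD over 8 libraries, shortened where the mean minus the SD would fall to 0 or below. The dashed line marks equal levels; 52 genes were called higher in liver, 7 higher in brain and 2 neither, by colour.

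Genes of electron donors, heme synthesis and breakdown, transcription factors and conjugation were described in the same fit. Of 9 electron donor genes 8 were higher in liver and none was lower, among them Por (log2 fold change 2.58, SE 0.25), Cyb5a (3.85, SE 0.35) and Cyb5r3 (3.33, SE 0.26). Genes of heme synthesis and breakdown were higher for 12 of 13, with Blvrb, a biliverdin reductase, at 4.34 (SE 0.17) and Alas2 at 2.17 (SE 0.23). Of 31 transcription factors of P450 genes 23 were higher and 6 lower, and of 40 conjugation genes 38 were higher and Gstm5 alone was lower (-2.97, SE 0.18).

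One year of cyclic KD was compared with CD in the livers to ask whether the diet changed the family. No member was called among 66 at adjusted p under 0.05 by edgeR, and none of 18002 genes was (0.0%); DESeq2 also called no member. At an unadjusted p under 0.05, 5 members were higher in KD, where 7.04% of all genes were, and 1 was lower, where 8.47% were. The median log2 fold change of the 66 was 0.29 with 54 above 0, and that of all genes was 0.04 with 10047 of 18002 above 0. The errors were large: the SE of the log2 fold change was 0.73 for Cyp2e1, 0.92 for Cyp8b1 and 0.97 for Cyp4a14. Without the 4 low CD livers the median was -0.29, with 26 above and 40 below 0, and no member was called. Of 17932 genes in that fit and the main fit, 9414 were above 0 (median 0.02). The 15 leading members then had log2 fold changes from -0.92 to -0.24, all below 0, where with all libraries 14 of 15 were above 0, from -0.04 to 0.49. As the 4 were the CD livers of lowest P450 share, leaving them out lowers such fold changes by that choice. The direction for the leading members also changed elsewhere: 4 of 15 were above 0 with the summed olfactory, vomeronasal and taste receptor genes as a covariate (median -0.03), and 7 of 15 without the Gm10800-rich livers (median -0.02, from -1.27 to 0.63).

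Cyp2s1 (ENSMUSG00000040703), a member known mainly from epithelia outside the liver, had the smallest p. It had 0.594, 1.47 and 2.59 CPM in CD and 1.42, 2.91 and 9.45 CPM in KD livers as lowest, median and highest values (log2 fold change 1.47, SE 0.38, unadjusted p = 0.00134, adjusted p = 0.291 by edgeR). The groups overlapped, with KD 12 as the only KD liver under 2 CPM. The highest, KD livers 13, 10 and 9, had bile duct marker sums of 288, 354 and 360 CPM, against at most 96.4 CPM in the other KD livers. CD liver 5, with a sum of 257 CPM, had no more than 1.71 CPM of Cyp2s1. The highest CD value was in liver 1, the Gm10800-rich CD liver. The part of either in these values was not tested. Without the 4 low CD livers its log2 fold change was 1.53. Cyp2b13 had medians of 0.217 CPM in CD and 2.86 CPM in KD livers (log2 fold change 2.98, SE 0.91), Cyp2b9 of 7.47 and 136 CPM (2.38, SE 1.04), Cyp26a1 of 11.6 and 25.9 CPM (1.13, SE 0.50) and Cyp26c1 of 4.28 and 7.62 CPM (0.68, SE 0.31), with adjusted p from 0.291 to 0.313 by edgeR. Cyp2b13 and Cyp2b9 were high in KD livers 9 and 10, and as members of the female-biased list they took part in its high sums there. Part of the reads of Cyp2b13 can come from copies (27.3% of windows shared). Its KD median lay between the values of KD livers 14 and 11, both Gm10800-rich. Cyp26a1 and Cyp26c1 came to 0.47 and 0.20 without the 4 livers. On the lower side stood Cyp4f18 (-1.73, SE 0.70), Cyp4f16 (-1.19, SE 0.58), Cyp21a1 (-0.78, SE 0.61), Cyp2c69 (-0.73, SE 0.98) and Cyp17a1 (-0.33, SE 0.63). Of these 5, Cyp21a1 alone was still below 0 (-0.92) without the 4 livers, and the other 4 came out above it.

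**Figure D4:**
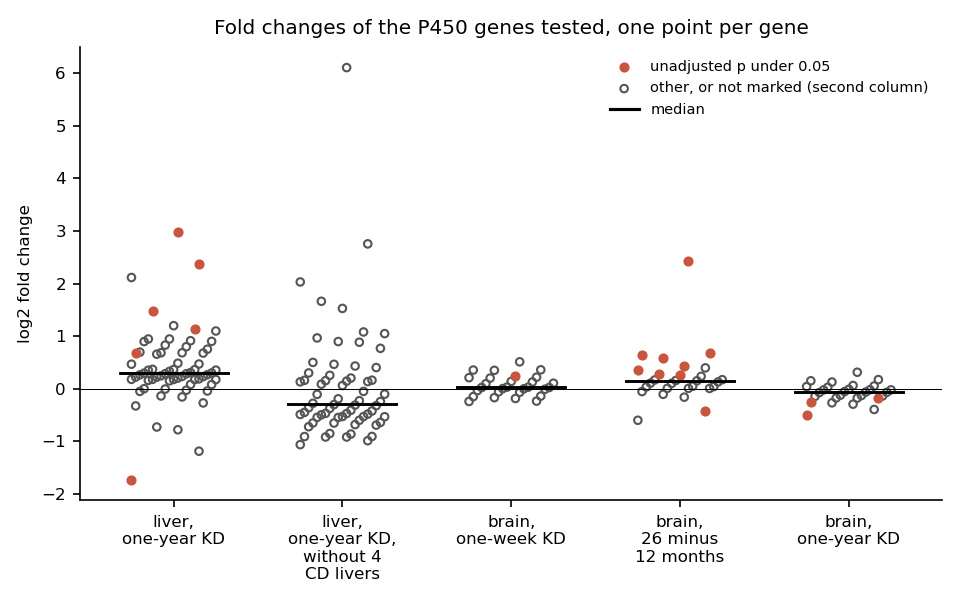
Log2 fold changes of the P450 genes tested in each comparison, 1 point per gene, with a line at the median; filled points had an unadjusted p under 0.05 by edgeR, which the second column, fitted without the 4 low CD livers, does not mark. The liver median moved from 0.29 to -0.29 between the first and the second column, where the highest point is Cyp2a4 at 6.11, and the brain medians were 0.03, 0.14 and -0.06.

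Lists of genes that particular receptors are known to induce were described by count. The 4 Cyp4a genes of PPARa had log2 fold changes above 0 in KD liver (median 0.79), as did all 9 genes of the list for CAR or PXR (median 0.49), the receptors that sense drugs, and both genes tested for the aryl hydrocarbon receptor (median 0.40), and none of them was called. Without the 4 low CD livers, 2 of 4 PPARa genes (median 0.02), 3 of 9 CAR or PXR genes (median -0.28) and 1 of 2 aryl hydrocarbon receptor genes were above 0, with Cyp4a10 at -0.68, Cyp4a31 at 0.77, Cyp2c29 at -0.85, Cyp1a2 at -0.86 and Cyp1b1 at 1.66. Of the genes around the family, 8 of 9 electron donors, 36 of 43 conjugation genes and 22 of 31 transcription factors were above 0, with none called, and without the 4 livers 1 of 9, 8 of 43 and 6 of 31 were. The smallest unadjusted p among the heme genes were those of Hmox2 (-0.37, SE 0.14), Alas2 (-0.51, SE 0.21) and Hmox1 (-1.55, SE 0.65), and 6 of 13 were above 0 (2 of 13 without the 4 livers). Kupffer cell markers were below 0 for 10 of 10 (median -1.98) and neutrophil markers for 8 of 8 (median -4.17), also with none called, and hepatocyte markers were above 0 for 9 of 9 (median 0.32), as were bile duct cell markers for 6 of 6 (median 1.35). Without the 4 livers, Kupffer cell markers were above 0 for 10 of 10 (median 0.56), neutrophil markers for 7 of 7 (median 1.10), bile duct cell markers for 5 of 6 and hepatocyte markers for 1 of 9 (median -0.21). The part of these cell markers in the fold changes of the family was not tested.

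In brain, the family was led by Cyp46a1 (ENSMUSG00000021259, chr12:108334381-108362234, plus strand, GRCm38). Its lowest, median and highest values were 84.6, 98.6 and 119 CPM at 12 months on CD, 55.4, 93.2 and 144 CPM after one week of KD, 41.3, 86.8 and 134 CPM at 26 months on CD and 40.3, 112 and 136 CPM at 26 months on KD. All 4 groups overlapped. Per kilobase, the 26-month CD brains had 27.9 CPM of Cyp46a1 (SD 8.86, n = 8), 11.8 of Cyp2j9, 8.94 of Cyp2d22, 6.73 of Cyp2j6, 6.19 of Cyp7b1, 4.91 of Cyp4f15, 4.54 of Cyp27a1, 4.52 of Cyp4x1, 4.05 of Cyp20a1 and 4.03 of Cyp2u1. Gaps over 1 SD of the higher gene separated Cyp46a1 from Cyp2j9, Cyp2j9 from Cyp2d22, Cyp2d22 from Cyp2j6 and Cyp4x1 from Cyp20a1, and the other neighbours in the list were closer. The Cyp2j and Cyp4f genes make epoxides or hydroxylated forms of arachidonic acid, and Cyp2u1 acts on the same class of fatty acids. Means were above 1 CPM for 26 members in the CD brains of either age.

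By role, the brain divided P450 counts differently from the liver. Sterol genes took 18.1% to 44.1% of the counts on the family, foreign compound genes 31.8% to 51.2% and family 4 16.4% to 20.8%. Cyp46a1 was the largest member in all brains but CD 5 and KD 14 of 26 months, where Cyp2j9 led with 11% and 11.4%. Cyp7b1, which clears neurosteroids and oxysterols, had 11.8, 14.3 and 16.2 CPM at 12 months on CD as lowest, median and highest value, and 8.84, 13.3 and 18.6 CPM at 26 months on CD. Cyp27a1 had 4.5, 8.76 and 10.2 CPM at 12 and 4.67, 10.4 and 15 CPM at 26 months, and Cyp39a1 3.19, 3.78 and 4.54 CPM at 12 and 2.68, 3.91 and 5.15 CPM at 26 months. The ages overlapped for all 3. Cyp7a1 and Cyp8b1, the liver enzymes of bile acid synthesis, had medians of 0 and 0.183 CPM at 12 months on CD and did not pass the filter.

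Among the vitamin and hormone genes, Cyp26b1, the retinoic acid hydroxylase known from brain, had 5.91, 8.9 and 16.6 CPM at 12 months on CD and 3.34, 12.3 and 20.6 CPM at 26 months on CD. Cyp26a1 had medians of 0.0938 and 0.133 CPM. Cyp2r1 had 1.84, 2.25 and 2.62 CPM at 12 and 1.16, 1.62 and 2.26 CPM at 26 months, and Cyp27b1 medians of 0.973 and 1.13 CPM. Cyp11a1 had 2.2, 2.35 and 2.63 CPM at 12 and 1.22, 2.3 and 5.12 CPM at 26 months, with CD brain 8 at the top. Cyp19a1, the aromatase, had at most 0.487 CPM at 12 months on CD and at most 2.37 CPM at 26 months on CD, and Cyp17a1 at most 0.748 CPM in either.

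**Figure D5:**
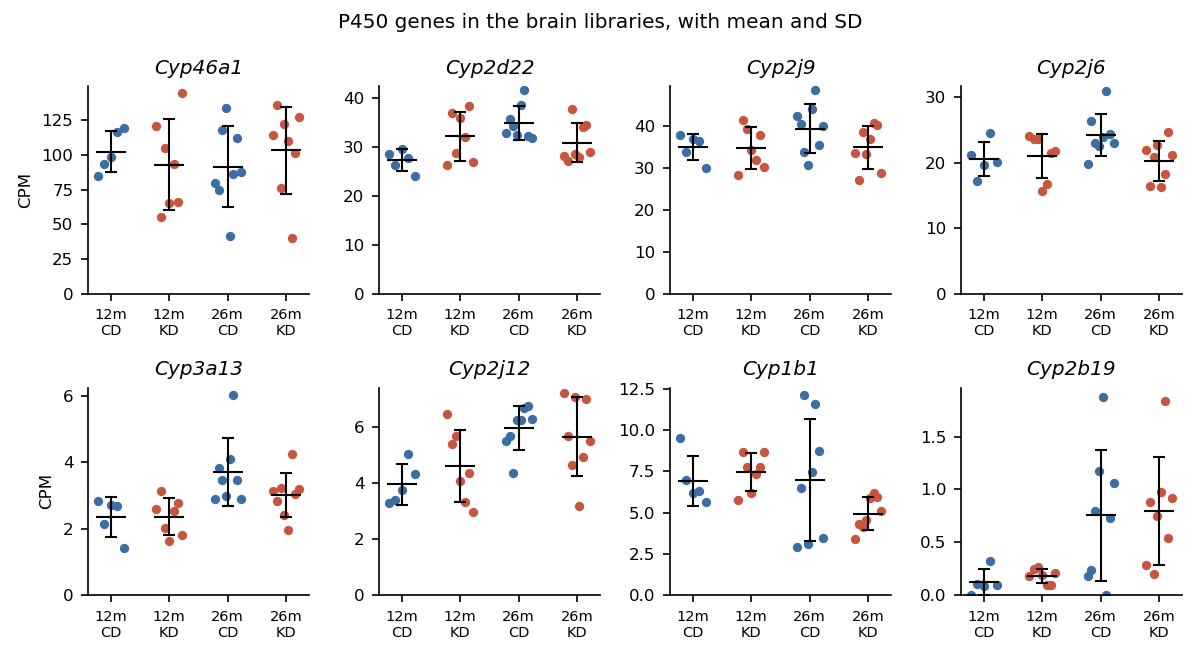
CPM of 8 P450 genes in each brain library by group (12m and 26m, age in months), with the mean and 1 SD; the axes start at 0. Cyp2d22 lies between 24 and 29.7 CPM at 12 months on CD and between 31.9 and 41.6 CPM at 26 months on CD, and Cyp46a1 spans 40.3 to 144 CPM over all groups with overlap.

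After one week of KD at 12 months, no member was called among 28 by edgeR, where 0.00453% of genes were, and DESeq2 called none either. At an unadjusted p under 0.05, 1 member differed, where 2.65% of genes did. It was Cyp2d22 (ENSMUSG00000061740), of the subfamily known for oxidizing amine drugs, with 24, 27.8 and 29.7 CPM on CD and 26.4, 32.1 and 38.5 CPM on KD (log2 fold change 0.24, SE 0.10, unadjusted p = 0.0251 by edgeR). The groups overlapped. The smallest p among the others were those of Cyp2s1 (0.35, SE 0.19), Cyp4v3 (-0.17, SE 0.13), Cyp27a1 (0.36, SE 0.28), Cyp2u1 (0.10, SE 0.08) and Cyp20a1 (0.14, SE 0.12), and on the lower side Cyp7b1 (-0.19, SE 0.17), Cyp27b1 (-0.24, SE 0.26), Cyp4f15 (-0.23, SE 0.27) and Cyp2r1 (-0.15, SE 0.20). All overlapped between diets. Over the 28 members the median log2 fold change was 0.03 with 17 above 0, where 49.4% of all genes tested were above 0. Summed endothelial markers did not overlap between these diets (175 to 226 CPM on CD and 228 to 254 CPM on KD), and their part in the P450 values was not tested.

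Brains of 26 months were compared with those of 12 months on CD to describe the family with age. No member was called among 28 by edgeR, where 1.26% of genes were, and DESeq2, which tested more members at low counts, called 6 as higher: Cyp2a22, Cyp2ab1, Cyp2b13, Cyp2b19, Cyp2d22 and Cyp4a31. The share of all genes that DESeq2 called was not recorded. At an unadjusted p under 0.05, 8 were higher at 26 months, where 7.81% of genes were, and 1 was lower, where 4.02% were. The median log2 fold change was 0.14 with 23 of 28 above 0. Cyp2d22 had 24 to 29.7 CPM at 12 months and 31.9 to 41.6 CPM at 26 months (log2 fold change 0.36, SE 0.10, adjusted p = 0.0755 by edgeR). Cyp3a13, of the drug-oxidizing family 3, had 1.41, 2.68 and 2.84 CPM at 12 and 2.89, 3.47 and 6.03 CPM at 26 months (0.65, SE 0.20, adjusted p = 0.124 by edgeR). For these 2 genes the ages did not overlap, and the share of all genes without overlap was not counted.

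Other genes with an unadjusted p under 0.05 were Cyp2j12 (log2 fold change 0.59, SE 0.18), Cyp4f18 (0.68, SE 0.25), Cyp2s1 (0.44, SE 0.19), Cyp20a1 (0.28, SE 0.11) and Cyp4f14 (0.26, SE 0.11), and, on the lower side, Cyp2r1 (-0.43, SE 0.20). For all of them the ages overlapped. Cyp2b19, a skin member of the Cyp2b subfamily, had 0 to 0.324 CPM at 12 months and 0, 0.763 and 1.87 CPM at 26 months (2.42, SE 0.71, adjusted p = 0.0953 by edgeR), and its highest brains, CD 5 and KD 14, were those with the most Gm10800 (1.22% and 0.991%). Of the other members that DESeq2 called, Cyp2a22, Cyp2b13 and Cyp4a31 had no count in the 12-month CD brains and Cyp2ab1 at most 0.0938 CPM, and each was highest in CD brain 5 among the 26-month CD brains except Cyp4a31, highest in CD brain 8. Since all brains of 26 months and none of 12 months held over 0.01% Gm10800, that signal and age cannot be told apart. On the lower side, Cyp2e1 (-0.60, SE 0.42) and Cyp2t4 (-0.10, SE 0.17) came after Cyp2r1. Cyp46a1 (-0.16, SE 0.25), Cyp7b1 (-0.05, SE 0.17), Cyp39a1 (0.05, SE 0.20), Cyp27a1 (0.40, SE 0.28), Cyp11a1 (0.13, SE 0.23), Cyp26b1 (0.15, SE 0.34) and Cyp27b1 (0.17, SE 0.25) had p above 0.1. Oligodendrocyte markers were above 0 for 6 of 6 (median 0.44, 2724 to 4196 CPM summed at 12 and 3753 to 5679 CPM at 26 months), and macrophage genes of the Kupffer cell list above 0 for 5 of 5, with 3 called. Meningeal fibroblast markers were below 0 for 9 of 9 (median -1.12, 84 to 179 CPM summed at 12 and 33.8 to 67.2 CPM at 26 months), with 7 called. The part of these cell types in the P450 values was not tested. Around the family, Gstm1, a glutathione transferase, was the only called gene of 26 conjugation genes (0.30, SE 0.08, adjusted p = 0.0489 by edgeR), and no electron donor, heme gene or transcription factor was called.

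One year of cyclic KD was compared with CD in brains of 26 months. No member was called by edgeR, nor was any gene (0.0%), and DESeq2 called no member. At an unadjusted p under 0.05, 3 members were lower on KD, where 3.0% of genes were, and none was higher. Cyp2j6, an arachidonate epoxygenase, had 19.8, 23.5 and 31 CPM on CD and 16.3, 21.1 and 24.7 CPM on KD (log2 fold change -0.26, SE 0.10). Cyp2d22 had 31.9, 33.6 and 41.6 CPM on CD and 27.1, 28.8 and 37.7 CPM on KD (-0.18, SE 0.09). Cyp1b1, known from blood vessels and pericytes, had 2.89, 6.97 and 12.1 CPM on CD and 3.41, 4.84 and 6.2 CPM on KD (-0.50, SE 0.24). The diets overlapped for all 3 genes. The smallest p on the higher side were those of Cyp4f14 (0.15, SE 0.10), Cyp2e1 (0.31, SE 0.38), Cyp2u1 (0.05, SE 0.07), Cyp46a1 (0.17, SE 0.22) and Cyp2b19 (0.13, SE 0.45). The median over 28 members was -0.06 with 8 above 0, where 49.0% of all genes tested were above 0. Endothelial markers were below 0 for 6 of 6 (median -0.24), and 3 of them, Ly6c1 (-0.50, SE 0.15), Pecam1 (-0.38, SE 0.16) and Slco1a4 (-0.26, SE 0.12), had an unadjusted p under 0.05; their sum was 158 to 349 CPM on CD and 190 to 235 CPM on KD, with none at 0, and its part in the P450 values was not tested. Of 26 conjugation genes 23 were below 0, with Sult1a1 (-0.43, SE 0.13), Fmo2 (-0.84, SE 0.26) and Aox1 (-0.33, SE 0.12) at the smallest p and none called.

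The effect of one-year KD was then set against that of one-week KD in an interaction term. No member was called and no gene was (0.0%) by edgeR, and 1 of 28 members had an unadjusted p under 0.05, where 4.52% of genes did. It was Cyp2d22 (difference of log2 fold changes -0.42, SE 0.13, unadjusted p = 0.00395 by edgeR), whose log2 fold change was above 0 for one week and below 0 for one year. The next were Cyp2j6 (-0.29, SE 0.16), Cyp4f18 (-0.60, SE 0.34), Cyp1b1 (-0.60, SE 0.36) and Cyp2s1 (-0.31, SE 0.25), and on the higher side Cyp4f14 (0.15, SE 0.15), Cyp46a1 (0.31, SE 0.34) and Cyp2r1 (0.21, SE 0.27). The median of the 28 was -0.15 with 8 above 0. Endothelial markers were below 0 in this term for 6 of 6 (median -0.53), 4 of them with an unadjusted p under 0.05, and their part in the P450 values was not tested. The comparison with age and that with one-year KD share the 26-month CD brains, and the comparisons with age and with one-week KD share the 12-month CD brains. A high or low value of the 26-month CD brains moves the comparisons with age and with one-year KD in opposite directions. One of the 12-month CD brains moves those with age and with one-week KD in the same direction. For the 9 members with an unadjusted p under 0.05 with age, the log2 fold changes for age and for one-year KD were, side by side, 0.36 and -0.18 for Cyp2d22, 2.42 and 0.13 for Cyp2b19, 0.65 and -0.29 for Cyp3a13, 0.59 and -0.07 for Cyp2j12, 0.68 and -0.39 for Cyp4f18, 0.28 and -0.01 for Cyp20a1, 0.44 and 0.04 for Cyp2s1, 0.26 and 0.15 for Cyp4f14, and -0.43 and 0.06 for Cyp2r1.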

How the data were processed

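RNA-seq of liver (n = 16) and whole brain (n = 28) was analysed. Per the labels and the study's methods, total RNA was depleted of ribosomal RNA, reads were trimmed with Trimmomatic, aligned with STAR to GRCm38 and quantified with RSEM; versions and the strand setting are not given in the sources used here. The authors deposited 1 table of whole-number counts per gene, not normalized. Symbols and exon lengths came from GENCODE M21. Libraries were normalized by TMM in edgeR 4.0.16 (R 4.3.3), filterByExpr set the low-count filter, and groups were compared by quasi-likelihood tests with Benjamini-Hochberg adjustment over all genes tested (threshold 0.05), in 3 fits: livers, brains, and 26-month CD livers with brains. CPM in liver and in brain come from separate normalizations, except in the tissue comparison. DESeq2 1.42.0, other scaling, no filter and leaving out libraries were tried. The script was tested on simulated counts with genes changed by known amounts. In liver it called 44 of 100 genes changed by a log2 fold of 1 and 72 of 100 changed by 2. In the one-week brain comparison it called 72 and 98 of 100, and between tissues 50 and 79 of 100.

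The members and lists were chosen with earlier results of these data known. Text names the 15 and 10 members of highest level in CD liver and in 26-month CD brain, all members of the sterol, steroid and vitamin groups, and per comparison the called members (at most 10 per direction) and the 5 of smallest p per direction; Cyp4a10, Cyp4a14, Cyp2a4 and members called only by DESeq2 were added after their values were seen. A planned search for genes of like pattern was left out because the livers split by mitochondrial and Gm10800 counts, as described above. No clustering of the livers was run.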

Additional observations from a re-analysis of the deposited data

Results flagged for a closer look

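Of 124 sets of values tested for a sample far from the rest of its group, 6 held one by Dixon's test, where chance gives about 1 in 20. In CD livers these were liver 1 for Cyp2b9 (136 CPM, the next 42.7) and for Cyp2b13 (3.81 CPM, the next 1.48), and liver 7 for Cyp2c69 (16.3 CPM, the next 2.31). Liver 1 was also the CD liver with the most Gm10800 (1.61% of counts), and Cyp2c69 shares 54.8% of its windows with other genes. In KD livers, liver 16 stood apart for Cyp3a25 (818 CPM, the next 587). In 26-month brains, CD 6 stood apart for Cyp3a13 (6.03 CPM) and KD 14 for Cyp2b19 (1.84 CPM), and KD 14 had the most Gm10800 of the KD brains (0.991%).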

How the results depend on the processing

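The count of members called was 0 in the liver and in the brain diet comparisons under every alternative, and leaving out each library in turn gave 0 to 0. With age in brain, DESeq2 called 6 members, a fit with the replicate number as a block called 0, and leave-one-out fits called 0 to 1, the 1 being Cyp2b19 without CD brain 6 of 26 months. Between tissues the 52 members higher in liver were called in all 16 leave-one-out fits, and of the 7 lower ones 6 were, Cyp2j9 being the exception (6 to 8 called lower). DESeq2 gave 59 and 8, no filter 60 and 6, and the block 49 and 7. For these alternatives the share of all genes called was not recorded. Whether livers and brains of equal number came from the same mouse is not stated in the labels, and the main fit treated them as independent. Same-numbered libraries had correlations of -0.056 to 0.13 between tissues and -0.28 to 0.25 between ages. Between tissues these values cannot decide the question, since organs of 1 mouse need not deviate together. Between tissues the block gave 49 members higher in liver, against 52 in the main fit, and 7 lower in both. With age the block called 0, as the main fit did.

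Signs that changed among the medians and the members of smallest p were these. In liver, the median of the members was -0.29 without the 4 CD livers under 2% mitochondrial counts, an alternative chosen after seeing the data, and 0.13 to 0.43 when 1 library was left out; it was 0.04 with a covariate of summed olfactory, vomeronasal and taste receptor genes and 0.10 without the Gm10800-rich livers. Without those 4 CD livers Cyp4f16 came to 0.89, Cyp4f18 to 0.97, Cyp2c69 to 0.15 and Cyp17a1 to 0.90; Cyp17a1 came to 0.30 with the receptor covariate, 0.42 without the Gm10800-rich livers and -0.63 to 0.14 when 1 library was left out (above 0 without CD liver 3), and Cyp2c69 to -1.12 to 0.88 (above 0 without CD liver 7). With age, Cyp46a1 came to 0.10 and Cyp7b1 to 0.0118 with the receptor covariate, and to 0.082 and 0.19 with the block; leaving out 1 library gave Cyp7b1 -0.14 to 0.0148, above 0 without 12-month CD brain 16 or 26-month CD brain 3. For one-year KD in brain, Cyp2b19 came to -0.0456 with the covariate and to -0.0639 to 0.28 with 1 library left out (below 0 without CD brain 1, 2 or 6). In the interaction, Cyp2e1 came to -0.10 to 0.60 (below 0 without 12-month CD brain 1) and Cyp2t4 to -0.0068 to 0.17 (below 0 without 12-month CD brain 4). The causes were not tested.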
